A study of Mus musculus with 6 samples.

Results

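AP-1 is a dimer of bZIP transcription factors, and 8 of the 10 genes examined here encode proteins of this class: *Jun*, *Junb* and *Jund* of the Jun family, *Fos*, *Fosb*, *Fosl1* and *Fosl2* of the Fos family, and *Atf3*. The other two are *Egr1*, a zinc finger factor, and *Ier2*, a small nuclear protein, which are switched on by the same stimuli. The members were chosen by gene family, as rows with these names in the deposited table, with the group means of this comparison already known, so the values are a description with no test. Of the 10 genes, 9 were found among the 19270 genes of the table. *Fosl1* was not analysed here.

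Jun proteins pair with each other or with Fos proteins, whereas Fos proteins do not form stable dimers among themselves, so a Fos protein needs a Jun or another bZIP partner to bind DNA. Immediate early genes are transcribed within minutes of growth factor, stress or MAP kinase signals without new protein synthesis: ERK acts on *Fos* and *Egr1* through ternary complex factors, and JNK phosphorylates JUN. Their transcripts are short-lived, and tissue dissection is itself a known stimulus.

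Incisors of 3 control and 3 mutant mice were sampled 4 days after tamoxifen given at 1 month of age. By the study's methods, the dissected tissue was the proximal mesenchyme of the incisor. The mutants were *Gli1-CreER;Arid1bfl/fl*, in which tamoxifen activates Cre in *Gli1*-expressing cells and deletes the floxed *Arid1b*, a subunit gene of the BAF chromatin remodeler. The controls carry the genotype wild type in the sample labels and are described in the methods as *Arid1bfl/fl* mice given the same tamoxifen. All 6 mice therefore received tamoxifen. Cre acts only in cells that express *Gli1*, whose descendants lie in both mesenchyme and epithelium of the incisor, whereas RNA came from the whole dissected tissue.

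The table gave 1 authors' mean per group and gene, and values per mouse were not analysed here, so no mean carries an SD and no difference was set against the spread between mice. A gene was called higher or lower when its mutant mean was past 1.5-fold of its control mean. The libraries were scaled by the authors to upper quartiles of 44.57 to 44.58, and the estimated number of reads per library was 37123643 to 49594469. The lowest value of a library was taken as no reads, with 1 read worth the same amount, and the reads behind each member were estimated from this. Exact 95% binomial intervals of the ratio are given below. These intervals cover counting error only. The spread between mice is not in them.

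*Arid1b*, the deleted gene, was at 97.6 (control mean) against 38.0 (mutant mean), a ratio of 0.390. *Gli1*, which marks the cells targeted here, was 106.4 and 46.1. The mutants carry *Gli1-CreER*, and the methods name no such allele in the controls. The part of this driver allele in the *Gli1* value was not tested. The groups also differed in sex-linked transcripts. *Ddx3y*, *Eif2s3y*, *Uty* and *Kdm5d* of the Y chromosome were at 25.3 to 65.3 in the mutants and at 0.0259 to 0.0434 in the controls, below what 3 reads per library would give, and *Xist* was 3368 against 813.8. The mutants thus had Y-linked transcripts together with *Xist*, whereas the controls had *Xist* without them, so the makeup by sex differed between the groups. Its part in the values below was not tested.

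The promoters of the members are shown first, because *Jun* and *Atf3* are textbook targets of AP-1 and ATF proteins themselves. The RefSeq table for GRCm38.p6, the assembly also named mm10, held a start for 7 of the 9 members, and the 250 bases before that start were searched on both strands. The *Jun* window was chr4:95052223-95052472 on the minus strand, and the *Fos* window was chr12:85473640-85473889 on the plus strand. The *Atf3* window was chr1:191183334-191183583 and the *Fosb* window was chr7:19310046-19310295, both on the minus strand. *Jun*, *Fos* and *Atf3* are members with higher means in the mutants, and *Fosb* is the member with a lower mean. Capitals mark matches to TGANTCA (the AP-1 site), TGANNTCA (a site with a wider spacer), TGACGT (the start of the cyclic AMP response element) and TATAAA (the TATA box).

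Jun: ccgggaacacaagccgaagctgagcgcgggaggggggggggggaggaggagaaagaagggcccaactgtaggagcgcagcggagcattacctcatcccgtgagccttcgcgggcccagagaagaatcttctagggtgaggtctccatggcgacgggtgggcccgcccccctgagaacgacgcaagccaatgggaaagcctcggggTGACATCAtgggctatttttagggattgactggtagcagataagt
Fos: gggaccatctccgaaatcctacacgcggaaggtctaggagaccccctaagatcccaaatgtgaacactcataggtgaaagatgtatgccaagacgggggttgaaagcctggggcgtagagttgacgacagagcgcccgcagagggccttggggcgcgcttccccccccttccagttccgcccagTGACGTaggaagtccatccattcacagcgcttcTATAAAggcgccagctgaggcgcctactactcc
Atf3: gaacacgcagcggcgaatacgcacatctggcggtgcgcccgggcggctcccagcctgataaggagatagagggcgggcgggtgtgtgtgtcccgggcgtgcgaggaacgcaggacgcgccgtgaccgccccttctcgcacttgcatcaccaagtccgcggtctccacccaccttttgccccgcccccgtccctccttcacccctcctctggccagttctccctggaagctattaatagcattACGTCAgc
Fosb: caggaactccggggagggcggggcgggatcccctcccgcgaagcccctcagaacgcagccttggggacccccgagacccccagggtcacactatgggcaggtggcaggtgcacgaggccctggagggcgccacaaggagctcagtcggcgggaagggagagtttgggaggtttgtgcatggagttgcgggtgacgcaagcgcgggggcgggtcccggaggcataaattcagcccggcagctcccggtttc

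The *Jun* window held the 8-base match TGACATCA, which starts 45 bases before the transcription start. *Fos* held TGACGT 66 bases before its start and a TATA box 33 bases before it. *Atf3* held TGACGT on the other strand, 8 bases before the start used here. The *Atf3* window lies inside the gene as annotated, which extends upstream to 191218039. No *Atf3* window at that end was among the 7 member windows. The *Fosb* window held no match to the 4 motifs. Of all 32841 promoter windows of this length, 11.9% held TGANNTCA, 6.47% held TGACGT, 12.4% held TATAAA and 6.75% held TGANTCA. Among the 7 member windows, TGANNTCA was in 2 (*Jun* and *Jund*), TGACGT in 2 (*Fos* and *Atf3*), TATAAA in 1 and TGANTCA in 0. The motifs were chosen with the group means known, and a match is a run of letters and not a measured binding site.

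Among the 9 members, 4 were called higher in the mutants (*Jun*, *Fos*, *Atf3* and *Egr1*), 1 was called lower (*Fosb*), and *Junb*, *Jund*, *Fosl2* and *Ier2* were within 1.5-fold. Over all 19270 genes, 7.17% were called higher and 5.73% lower. Of the 14744 genes at or above 1 in the mean of both groups, a level that all 9 members reached, 4.14% were called higher and 1.91% lower. The median log2 ratio was 0.27 over the members and 0.00210 over all genes. The members were chosen with this contrast known, so nothing is read from these shares.

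**Figure D1:**
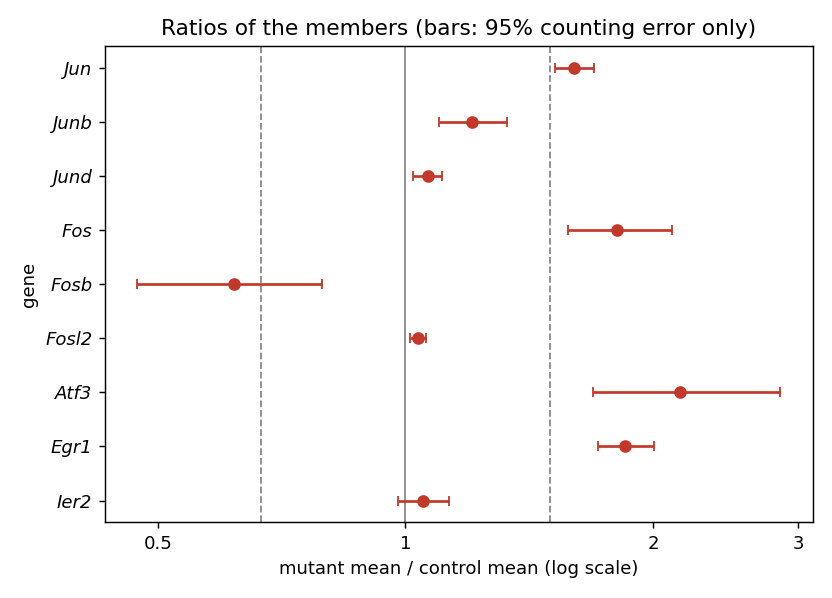
Ratio of the mutant mean to the control mean (log scale) for the 9 members, with bars for the exact 95% interval from counting error and dashed lines at 1.5-fold in each direction. *Jun*, *Fos*, *Atf3* and *Egr1* lie right of the upper line, *Fosb* lies left of the lower line, and the other 4 lie between 1.04 and 1.21.

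*Jun* encodes the founding member of the Jun family and the strongest activator among the Jun proteins. It has a single exon on chromosome 4 (GENCODE vM21, 95049034 to 95052222, minus strand). Its authors' means were 18.3 (control) and 29.3 (mutant), a ratio of 1.60 (counting interval 1.52 to 1.69) from about 2120 and 3812 reads over the 3 libraries of a group. The log2 ratio of 0.68 ranked 1098 among all genes. Among the 5223 genes whose mean was within 2-fold of that of *Jun*, 98.1% had a lower ratio and 2.53% were called higher.

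*Junb*, which binds the same sites and is a weaker activator, had means of 6.49 and 7.83 in controls and mutants, a ratio of 1.21 (counting interval 1.10 to 1.33). *Jund*, the Jun protein that is present in resting cells, had means of 37.8 and 40.3, a ratio of 1.06 (1.02 to 1.11). The Jun family thus ranged from 1.06 to 1.60, with all 3 genes higher in the mutants and *Jun* alone past 1.5-fold. Whether *Jun* differed from *Junb* or *Jund* beyond the spread between mice was not tested.

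Overlapping genes limit these values, since it is not given whether reads were counted by strand. *Junos*, an antisense transcript over *Jun*, had means of 0.299 and 0.458. *Gm11175*, antisense to *Jund*, had 1.07 and 1.23. *Prdx2*, which shares exonic sequence with *Junb* on the opposite strand, was far more abundant, at 209.2 in the controls and 208.5 in the mutants, so that the level of *Junb* is uncertain.

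In the Fos family the pattern was mixed. *Fos*, the classical immediate early gene (chromosome 12, 85473890 to 85477273), had a control mean of 2.44 and a mutant mean of 4.41. The ratio was 1.81 (counting interval 1.57 to 2.11) from about 280 and 571 reads, and it was above the ratio of 95.6% of the 2535 genes at a like level. Of those genes, 8.68% were called higher. *Fosb*, whose protein resembles FOS (chromosome 7, 19302696 to 19310051), had means of 1.32 and 0.817. Its ratio of 0.618 (counting interval 0.472 to 0.793) rested on about 150 and 103 reads, and 6.72% of the 2528 genes at a like level had a lower ratio, with 9.34% called lower. *Fos* and *Fosb* are usually induced by the same signals, and here their means lay in opposite directions. With 1 added to both means, the log2 ratio of *Fosb* was -0.35, short of 1.5-fold.

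*Fosl2* encodes FRA-2, a Fos protein without a strong activation domain that is expressed in osteoblasts and other mesenchymal cells. Its means were the highest of the members, at 119.0 and 123.2 before division by length, with a ratio of 1.04 (counting interval 1.01 to 1.06).

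*Atf3* encodes a bZIP factor of the ATF family that pairs with JUN and responds to stress (chromosome 1, 191170296 to 191218039). With a control mean of 0.748 and a mutant mean of 1.61, it had the highest ratio of the members, 2.15 (counting interval 1.69 to 2.85). It was also the member with the fewest control reads, about 84 against 206 in the mutants. At this level large ratios were common, as 13.1% of the 2485 genes within 2-fold of its mean were called higher. With 1 added to both means, its log2 ratio was 0.58, just short of 1.5-fold.

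*Egr1*, a direct target of ERK signaling (chromosome 18, 34859823 to 34864984), had a control mean of 7.96 and a mutant mean of 14.7. The ratio was 1.85 (counting interval 1.71 to 2.01) from about 920 and 1911 reads, above that of 98.1% of the 4204 genes at a like level, of which 4.19% were called higher. *Ier2* had means of 12.3 and 12.9 and a ratio of 1.05, with a counting interval of 0.978 to 1.13 that includes 1. *Egr1* and *Ier2* therefore lay apart, although both are early response genes with similar means in the mutants.

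**Figure D2:**
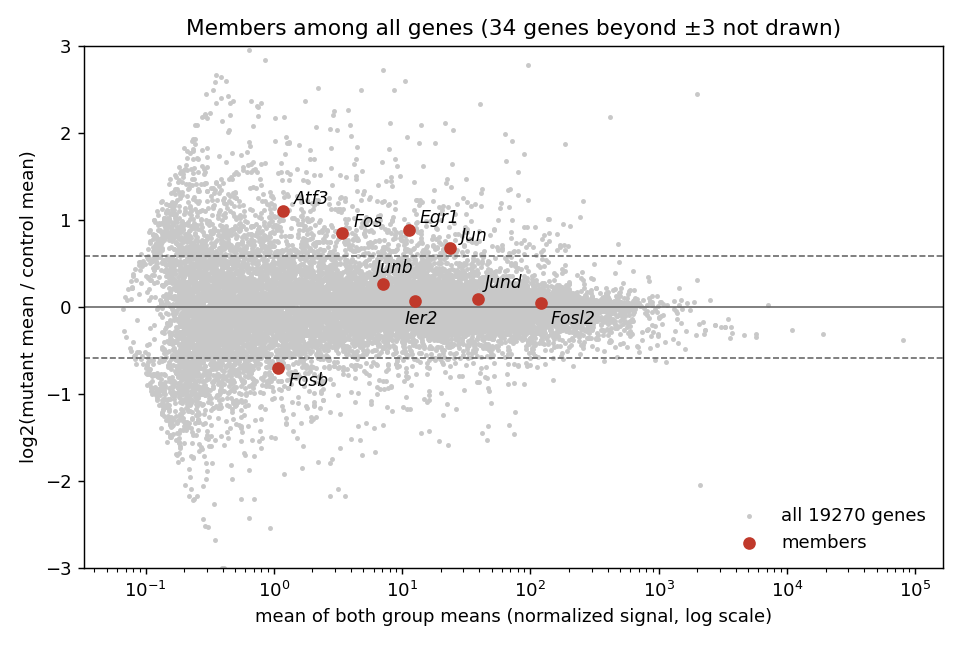
Log2 ratio of the mutant to the control mean against the mean of both groups (log scale) for all genes (grey) and the 9 members (red), with dashed lines at 1.5-fold. *Atf3* and *Fosb* lie at means near 1, where the grey cloud is wide, and *Jun* and *Egr1* lie above most genes of their level.

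*Jun* was next compared with its dimer partners on a scale per kb of exon, since the deposited values were not divided by gene length. In the controls the level per kb was 22.7 for *Jund*, 12.3 for *Fosl2*, 5.74 for *Jun*, 2.82 for *Junb*, 1.04 for *Fos* and 0.212 for *Fosb*. In the mutants it was 24.1 for *Jund*, 12.7 for *Fosl2*, 9.20 for *Jun*, 3.40 for *Junb*, 1.88 for *Fos* and 0.131 for *Fosb*. The order of the 6 genes was the same in both groups. *Jund* and *Fosl2* thus made up most of the Jun and Fos family transcripts, and the members with high ratios were of middle or low level. On the same scale, *Ier2* was 8.07 and 8.48, *Egr1* was 1.77 and 3.28, and *Atf3* was 0.347 and 0.747.

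*Jun* took 18.4% of the summed Jun family level per kb in the controls and 25.0% in the mutants, whereas the share of *Jund* was 72.6% and 65.7%. In the Fos family the share of *Fos* was 7.65% (control) and 12.7% (mutant), and that of *Fosl2* was 90.8% and 86.4%. The summed Jun family was 31.2 in the controls and 36.7 in the mutants, a ratio of 1.18, and *Jun* made up 62.9% of that difference in level. The summed Fos family was 13.5 and 14.7, a ratio of 1.09. For each unit of Fos family transcript per kb there were 2.31 units of Jun family transcript in the controls and 2.49 in the mutants. These balances depend on the length used. With the longest transcript in place of all exons they were 1.62 and 1.78, and without division by length 0.510 and 0.603, each higher in the mutants.

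**Figure D3:**
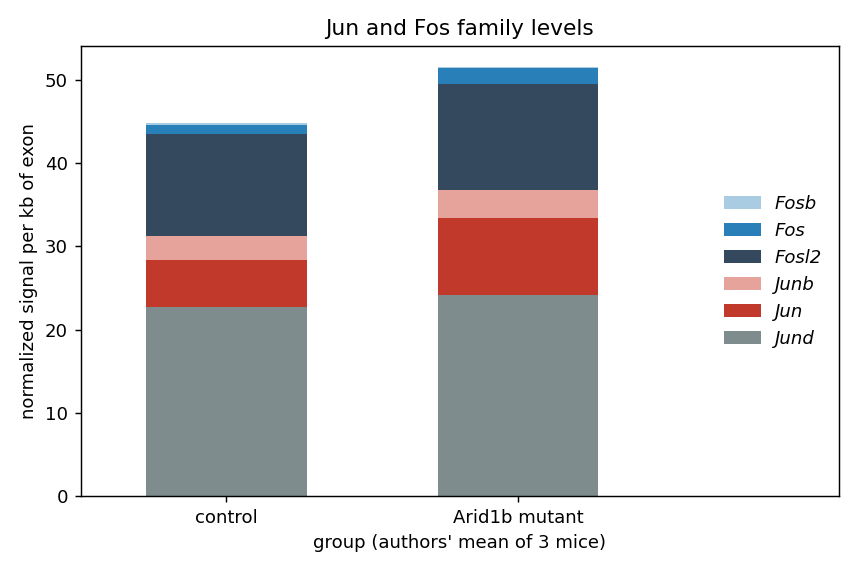
Summed normalized signal per kb of exon of the 6 Jun and Fos family genes in controls and mutants, stacked by gene (authors' means, no error available). *Jund* and *Fosl2* make up most of each bar, and the total is 44.8 for the controls and 51.5 for the mutants.

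**Figure D4:**
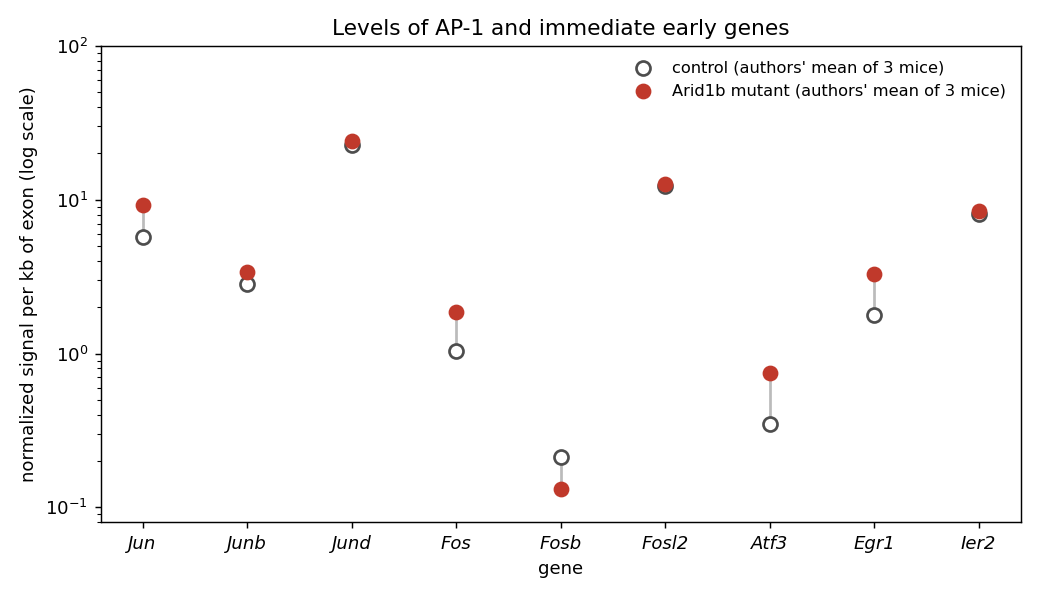
Normalized signal per kb of exon (log scale) of the 9 members, with open circles for the control mean and red circles for the mutant mean. *Jun*, *Fos*, *Atf3* and *Egr1* have clearly separated circles, and those of *Jund*, *Fosl2* and *Ier2* nearly coincide.

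The members were then read beside other genes of the same pathway. Of 34 other listed immediate early genes, 33 were in the table, and 4 were called higher and 0 lower, with 22 above and 11 below their control means and a median log2 ratio of 0.18. *Ccn1*, a matricellular protein gene that responds to serum and mechanical signals, had means of 13.4 and 23.1, a ratio of 1.72. The orphan nuclear receptor genes *Nr4a1* and *Nr4a3* had ratios of 1.57 each, the former with means of 5.51 and 8.64. Their more abundant paralog *Nr4a2* lay the other way, at 49.1 in the controls and 33.0 in the mutants. Its ratio of 0.673, the lowest of this list, was just within 1.5-fold. *Npas4*, a neuronal activity gene, was the fourth gene called higher, at 0.372 and 0.657. The most abundant of this list, *Klf6* and *Rhob*, had ratios of 0.857 and 1.05. Over all genes 7.17% were called higher and 5.73% lower, and 50.5% lay above their control means. With 1 added to both means, 1 gene of the list was called higher, and at 2-fold 0 were.

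Among 16 other bZIP factors that can pair with JUN or FOS proteins, 3 were called higher and 1 lower, with 6 above and 10 below their control means, beside 7.17% called higher, 5.73% called lower and 50.5% above over all genes. Their median log2 ratio was -0.03, and it was 0.035 when the groups were scaled to their mean over all genes. *Maf* had means of 92.4 and 186.4, a ratio of 2.02. It encodes a bZIP factor of macrophages, lens and other lineages. *Batf2*, with means of 0.289 and 0.551, was also called higher. The 8 listed macrophage markers were all higher in the mutants, at ratios of 1.03 to 1.36, with summed levels of 281.5 (control) and 316.6 (mutant). Their part in the *Maf* value was not tested. *Batf3*, a bZIP factor of dendritic cells, had means of 2.04 and 1.26, a ratio of 0.618, and *Nfe2l1*, the most abundant of the list, had a ratio of 0.999.

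Upstream of the immediate early genes, 22 of 22 listed kinases and factors were within 1.5-fold, at ratios of 0.726 to 1.14. Calls past 1.5-fold were infrequent over all genes too, at 7.17% higher and 5.73% lower. *Rps6ka3*, which encodes a kinase that acts downstream of ERK, had means of 232.5 and 229.8. These are transcript levels and do not measure kinase activity. The 12 listed feedback genes of the ERK pathway were also all within 1.5-fold, at ratios of 1.06 to 1.41, and 12 of 12 lay above their control means, where 50.5% of all genes did. *Dusp6*, a phosphatase gene that ERK induces, had means of 46.3 and 51.9.

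Of 20 textbook AP-1 target genes, 16 were in the table, and 8 of these were called higher and 0 lower, where 7.17% of all genes were called higher. The collagenase gene *Mmp13* had means of 41.0 and 138.3, a ratio of 3.38. *Spp1*, which encodes osteopontin of mineralized tissue, had means of 38.9 and 99.2, a ratio of 2.55. *Cd44*, a receptor for hyaluronan, had 129.3 and 208.5, a ratio of 1.61, and the gelatinase gene *Mmp9* had 9.25 and 16.9, a ratio of 1.83. The metallothionein genes *Mt1* and *Mt2* had ratios of 1.67 and 1.61, and *Plaur*, the urokinase receptor gene, had 1.58. The median log2 ratio of the list was 0.52. With 1 added to both means it was 0.21 and 5 genes were called higher, and at 2-fold 3 were. The remaining gene called higher, *Areg*, was under 3 reads per library in the controls, with a mean of 0.211 in the mutants. *Ccnd1*, the most abundant gene of the list, had means of 246.2 and 264.1, a ratio of 1.07. Several of these genes have other regulators and are made in epithelium, osteoclasts or odontoblasts.

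Markers of some other cell types differed between the groups beside these values. Over all genes, 7.17% were called higher, 5.73% were called lower, and 50.5% lay above their control means. All 11 listed markers of dental epithelium were called higher in the mutants, at ratios of 1.72 to 14.6, and their summed level was 1647 in the controls and 10406 in the mutants. Most of that sum came from 3 enamel matrix genes, *Amelx* (361.9 and 3946), *Ambn* (617.4 and 3360) and *Enam* (135.8 and 1983). Of the other markers, *Krt14* was 90.4 and 182.3, *Cdh1* was 100.2 and 180.8, and the lowest of the 11 was *Krt15*, at 1.48 and 6.32. Of 10 listed markers of dental mesenchyme, 9 were lower in the mutants, 1 of them (*Gli1*) past 1.5-fold. The collagen gene *Col1a1* of this list was 21211 in the controls and 17127 in the mutants. Among 9 markers of red blood cells and neutrophils, 9 were lower in the mutants and 5 were past 1.5-fold, with summed levels of 83.4 and 37.6. Those 5 were all red blood cell genes, at ratios of 0.222 to 0.381. The neutrophil genes *S100a8*, *S100a9*, *Ngp* and *Camp* were within 1.5-fold, at 0.751 to 0.799. Endothelial markers had ratios of 0.894 to 1.13. Of 8 perivascular markers 1 was called lower, of 6 glial markers 1 was called higher, and of 7 skeletal muscle markers 1 was called higher and 3 lower, with summed levels of 7.46 and 6.73 for muscle. Lists this short cannot set 1 called gene apart from the share over all genes. The methods describe the dissected tissue as mesenchymal, and whether the dissections differed between the groups was not tested. The part of these cell types in the values of *Jun*, *Fos*, *Atf3*, *Egr1*, the AP-1 target genes and the ERK feedback genes was not tested. In whole tissue, fewer cells of a type and less RNA per cell cannot be told apart.

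Heat shock genes, which rise with *Fos* and *Jun* when tissue is handled, were listed for the same reason. All 10 were within 1.5-fold, at ratios of 0.983 to 1.33, with 7 above and 3 below their control means. Few genes of the whole set were past that fold either, with 7.17% called higher and 5.73% lower, and 50.5% lay above their control means. *Hspa1b* had the highest ratio of the list, 1.33, with means of 12.0 and 16.0. The summed levels were 2430 (control) and 2528 (mutant), most of it from *Hspa8* at 1278 and 1342. *Hspa8*, the most abundant, had a ratio of 1.05. The part of tissue handling in the values of *Jun*, *Fos*, *Atf3* and *Egr1* was not tested.

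**Figure D5:**
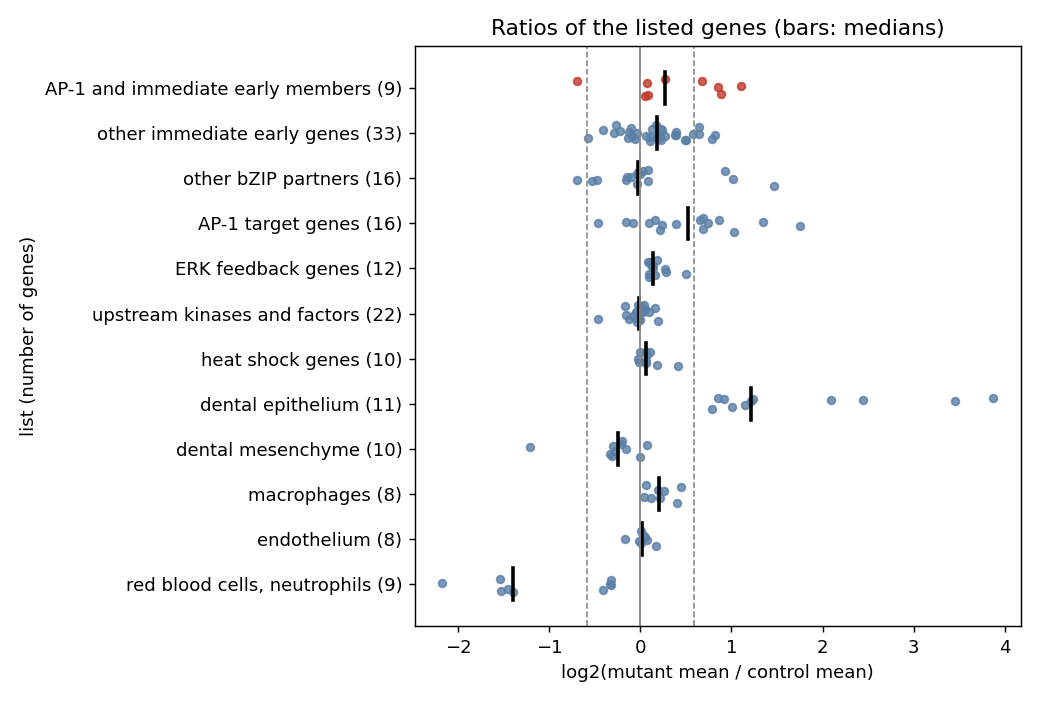
Log2 ratios of the mutant to the control mean for each gene of 12 lists (points) with list medians (black bars) and dashed lines at 1.5-fold. The dental epithelium list lies furthest to the right and the list of red blood cells and neutrophils furthest to the left, and the members, in red, fall into 4 genes right of the upper line, 1 left of the lower line and 4 between the lines.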

How the data were processed

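RNA of 3 control and 3 *Arid1b* mutant mice was sequenced. Per the study's methods, reads were trimmed and mapped to mm10, with Partek Flow used for the analysis. The submitters' processing notes name TopHat2 2.0.8. The annotation, the counting and its strand setting are not given in the sources used here. The deposited values are the authors' group means of a normalized signal of reads per gene. Their 4 comparison columns (p-value, FDR, ratio and fold change) and a filtered list of genes were not used. A second table summarizes each library, of which 3 numeric columns were not used.

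Ratios were computed from the authors' means, in place of the authors' test. The lowest group mean, 0.0259 in the controls and 0.0231 in the mutants, equals the mean of the libraries' minima and was taken as no reads, with 1 read worth the same amount. This is an inference. Means at or under the value of 3 reads (0.103 and 0.0923) were set to it. Exonic lengths and positions came from GENCODE vM21 on GRCm38, and promoters from RefSeq on GRCm38.p6.

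The members, lists and motifs were chosen with earlier results of these data known. All members are named, with Arid1b, and of each other list the genes past 1.5-fold at a mean of at least 1 and the 2 most abundant, as far as they bear on the members. Some listed genes that this rule would name are not reported here. Any further gene was picked with its values in view. The ratio step was tested on simulated data. Scripts ran in Python 3.11.15 with pandas 2.3.3 for tables, scipy 1.17.1 for intervals, numpy 2.4.6 for ratios and matplotlib 3.10.9 for plots.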

Additional observations from a re-analysis of the deposited data

How the results depend on the processing

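No paired analysis was possible because values per mouse were not analysed here, and for the same reason no mouse was left out in turn. At a 2-fold threshold 1 member was called higher (*Atf3*) and 0 lower. With 1 added to both means 3 members were higher and 0 lower, and *Atf3* had a log2 ratio of 0.58. At a laxer threshold and when scaled to the mean over all genes, the counts were 4 and 1. All 27 recomputed log2 ratios of members kept their sign, but these settings could hardly change it. Adding 1 to both means cannot turn a ratio. Centring on the median ratio of all genes and scaling to their mean shifted every ratio alike, by too little to turn a member. The median over the members lay between 0.24 and 0.33, with a mean of 0.37. The Jun to Fos family balance was 0.510 in controls and 0.603 in mutants without division by length, and 1.62 and 1.78 with the longest transcript. Scaled to the mean over all genes, the medians of the other bZIP factors and of the upstream kinases reversed from -0.03 and -0.02 to 0.035 and 0.044, by the construction of that scaling, which raised every ratio alike. Over all genes the counts were 2611 higher and 2474 lower at the laxer threshold, 499 and 367 at 2-fold, 468 and 188 with 1 added, and 222 and 94 for genes whose mean reached 10. At the depths of *Atf3* and *Fosb*, counting error alone spans a wide range of ratios.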
